A study of Mus musculus with 6 samples.

Results

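The heat shock proteins and DnaJ cochaperones are the main folding machinery of the cell, and 71 of their genes were measured in the mouse hippocampus with and without the NF-κB inhibitor IκBα. Members were chosen by name: probe sets with 1 gene symbol that begins with Hspa, Hspb, Hspd, Hspe, Hsph, Hsp90, Dnaja, Dnajb or Dnajc, leaving out Hspb1, with the probe set of highest mean taken for each gene. The 71 members are part of 18193 genes named on the array and have 172 probe sets between them. Hsp90ab1, the constitutive cytosolic Hsp90, had no probe set with a single symbol and is not analysed here.

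The comparison was between 3 control and 3 IκBα-deficient hippocampi from mice aged 2 to 3 months. Controls were IκBαfl/- littermates, which carry 1 floxed and 1 null allele of Nfkbia, and the deficient mice were IκBαfl/-;Nestin-Cre, with the same alleles and the recombinase. Every animal therefore already had a null allele, and no wild-type mouse is among the groups. Nestin drives the recombinase in neural progenitors, so that neurons, astrocytes and oligodendrocytes lose the floxed allele, whereas microglia and vessel cells keep theirs. The design asks how transcript levels in the hippocampus compare between brains with and without IκBα. The values are log2 expression values from Affymetrix mouse arrays, and each error of a group is the SD over n = 3 arrays, which the labels call biological repeats. The number of arrays limits the precision, since 3 against 3 cannot give an exact permutation p below 0.1.

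Hsp70 proteins bind exposed hydrophobic stretches of other proteins and release them through cycles of ATP hydrolysis. DnaJ proteins (classes A, B and C) bring substrates and set off the hydrolysis through their J domain, and Hsp110 proteins exchange the nucleotide. Hsp90 acts later, on near-native kinases and receptors, small heat shock proteins hold unfolded proteins without ATP, and Hspd1 with its lid Hspe1 folds proteins inside the mitochondrial matrix. Heat and proteotoxic stress switch on part of the family through heat shock factor Hsf1, which binds inverted repeats of the unit nGAAn, while unfolded proteins in the endoplasmic reticulum (ER) act through Atf6 and Xbp1 on the ER stress element. In the brain Hspa8 is abundant without stress and, with the J proteins Dnajc5 and Dnajc6, serves synaptic vesicles and the uncoating of clathrin.

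The regulatory sequences that set these branches apart are shown for the members on which the description turns. They were read from RefSeq promoters (build GRCm38.p6, 250 bases before the start), which held 58 of the 71 members. The first pair lies 144 to 57 bases before the start of Hspa1a, at chr17:34972213-34972300, and of Hspa1b, at chr17:34959295-34959382, both on the minus strand. Capitals mark the heat shock element GAANNTTC, which begins 104 bases before each start.
Hspa1a: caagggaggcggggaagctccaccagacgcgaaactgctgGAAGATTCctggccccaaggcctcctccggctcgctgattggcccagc
Hspa1b: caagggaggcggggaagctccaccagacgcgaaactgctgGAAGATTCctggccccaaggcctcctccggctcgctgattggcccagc

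The windows of both genes are the same letter for letter, and 247 of the 250 bases before the start are identical between them. The genes are near-identical copies, so their probe sets cannot be relied on to tell the transcripts apart.

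For Hsph1, at chr5:149636351-149636380 on the minus strand, the capitals mark TTCNNGAA, the same units in the other order. The Hsph1 window precedes the start used but lies within the annotated span of Hsph1 itself. For Hspe1, at chr1:55088053-55088082 on the plus strand, they mark a run of 4 alternating units that holds 2 overlapping matches of the 3-unit element (GAANNTTC, any 2 bases and a further GAA, or the reverse complement). The Hspe1 window lies within the annotated span of its neighbour Hspd1, which is read from the opposite strand.
Hsph1: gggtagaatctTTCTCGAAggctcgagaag
Hspe1: ggtccgTTCTAGAACCTTCCGGAAggcccc

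The ER branch is shown by Hspa5 (chr2:34772000-34772068, plus strand), Hsp90b1 (chr10:86705508-86705576, minus strand) and Dnajc3 (chr14:118937802-118937870, plus strand), with the ER stress element (CCAAT, any 9 bases and CCACG, or the reverse complement) in capitals.
Hspa5: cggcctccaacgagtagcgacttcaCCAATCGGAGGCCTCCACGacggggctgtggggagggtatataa
Hsp90b1: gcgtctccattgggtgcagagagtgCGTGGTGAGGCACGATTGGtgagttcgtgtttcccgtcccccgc
Dnajc3: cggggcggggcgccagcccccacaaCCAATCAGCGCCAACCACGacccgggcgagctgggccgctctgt

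GAANNTTC occurred in 10 of the 58 member promoters (17.2%) and in 6.62% of the 14452 promoters of measured genes. For TTCNNGAA the shares were 10.3% and 7.49%, and for either form 22.4% and 13%. Both forms read the same on either strand, and the 3-unit element contains both of them. That longer element was in 3 member promoters (5.17%), those of Hspd1, Hspe1 and Dnajb6, and in 0.484% of all. The matches of Hspd1 and Hspe1 are the same bases read from opposite strands. Hspa1a and Hspa1b, with near-identical promoters, were likewise each counted for GAANNTTC, so the member shares hold some sequences more than once. The ER stress element, searched on both strands, was in the 3 printed above (5.17%) and in 0.131% of all promoters. A match is a string of letters in a window and does not show that a factor binds there. Among the 13 members with either 2-unit form, 6 were higher and 7 lower in the deficient arrays, with a median difference of -0.04 on the log2 scale.

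On these arrays, with 1 probe set per gene, the median difference of the family between the groups lay close to that of all genes. No member passed the threshold (limma, Benjamini-Hochberg adjusted p under 0.05 over 18193 genes), and the share called over all genes was 0%. Of the 71 members, 40 were higher and 31 lower in the deficient group, with a median difference of 0.0076 (deficient minus control, log2) and a range of -0.36 to 0.29. Over all genes, 9575 were higher and 8618 lower, with a median of 0.0058. The median size of a difference, sign aside, was 0.060 for members and 0.062 for all genes, and 64 of 71 members lay within 0.15 of 0. The largest difference of any member was 1.28-fold.

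Without adjustment, limma gave p under 0.05 to 2 members on the higher side, Hspb9 and Dnajc17, where 3.33% of all genes did so, and to 0 members on the lower side, where the share was 1.39%. All 3 deficient arrays lay above all 3 controls for 6 members (Dnajc17, Dnajc7, Hspa4, Hspa9, Hspb6 and Hspb9), beside 5.94% of all genes. They lay below all controls for 4 (Dnajc28, Dnajc5b, Hspe1 and Hsph1), beside 3.82%. These shares of members, from 1 probe set per gene, are near those of all genes. With the mean of all probe sets, unadjusted limma p under 0.05 went to 1 member on the higher side and 4 on the lower. The shares over all genes were not counted for that setting, so those member counts have no background beside them. A p that misses the threshold does not show that a gene is alike in both groups; the standard errors of single members ranged from 0.057 for Dnajb2 to 0.21 for Dnajc24.

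**Figure D1:**
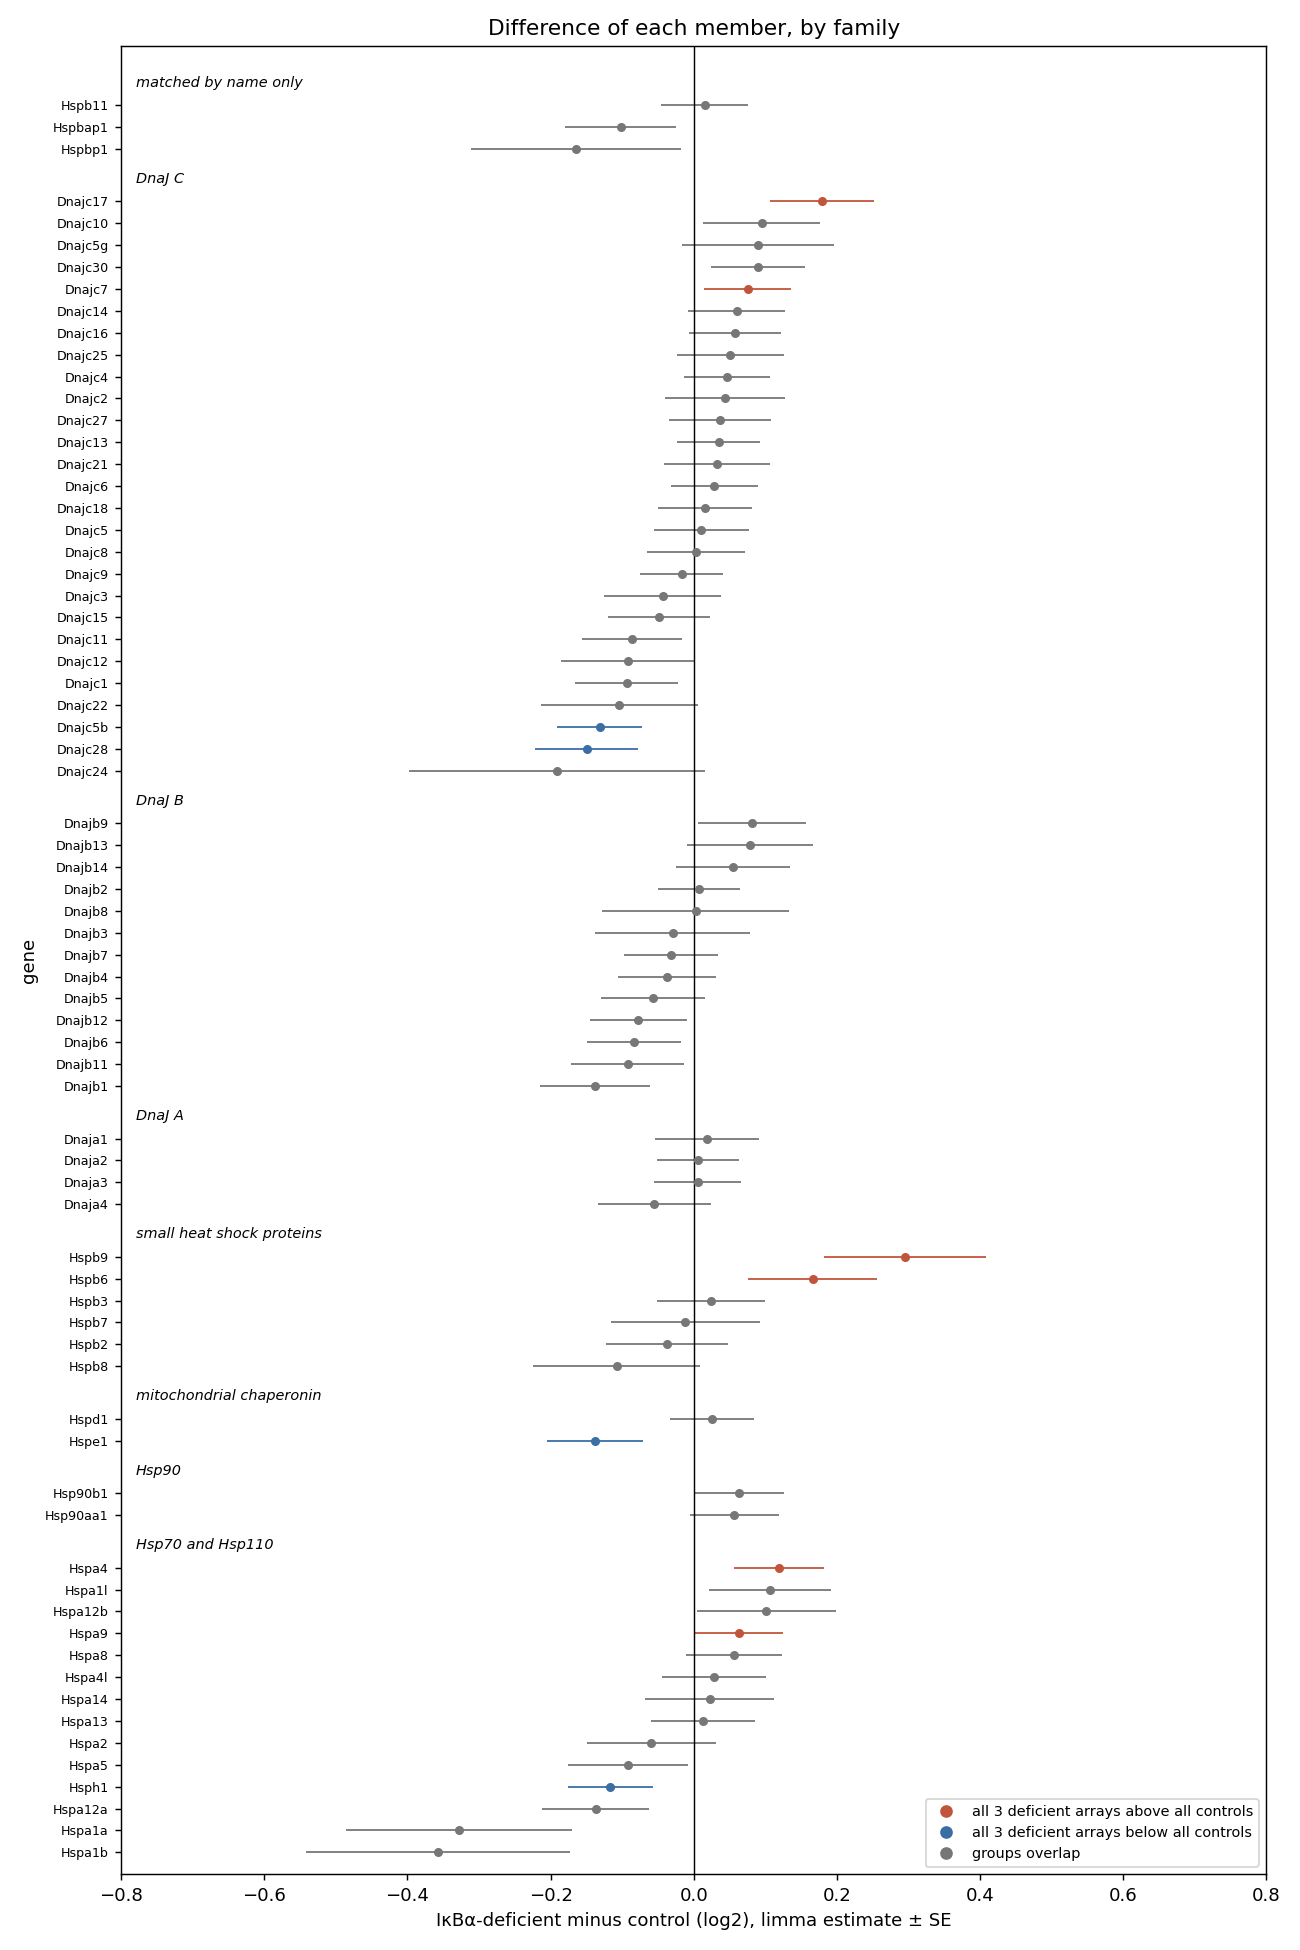
Difference of each of the 71 members between IκBα-deficient and control arrays (x axis, log2, deficient minus control, with the standard error of the limma fit as bars), one row per gene, grouped by family. Red marks the 6 members whose deficient arrays all lay above the controls, blue the 4 whose arrays all lay below, and grey those that overlapped; the members run from -0.36 for Hspa1b to 0.29 for Hspb9.

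The targeted gene checked the labels. Nfkbia, which encodes IκBα and is itself an NF-κB target, read 10.39, 10.35 and 10.31 in controls and 9.06, 9.13 and 8.66 in deficient arrays. The groups did not overlap, and the means of 10.35 ± 0.04 and 8.95 ± 0.25 differed by -1.40 ± 0.12 (SE), which is 2.64-fold lower, with a limma adjusted p of 0.057. Markers of hippocampal neurons were present on every array, with list means of 9.49 to 9.67 in controls and 9.47 to 9.54 in deficient arrays. Of the 11 measured, 2 were higher and 9 lower in the deficient group (median -0.07). An unadjusted limma p under 0.05 went to 4 of the 11, beside 857 of all 18193 genes, and 0 were called.

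Markers of neighbouring tissue were higher in the deficient group. All 11 measured choroid plexus markers were higher (median difference 1.56), with list means of 7.90, 5.75 and 5.68 in controls 1, 2 and 3 against 7.76 to 8.73 in deficient arrays. All 12 markers of meninges and fibroblasts were higher too (median 0.47), with means of 7.21 to 7.84 against 7.78 to 8.82. Unadjusted limma p was under 0.05 for 11 of 11 choroid plexus markers and 4 of 12 meninges markers, and 0 of either list were called. Deficient array 2 had a gap of 2.02 between 3′ and 5′ control probe sets of Gapdh and beta-actin, where the other 5 arrays had 0.56 to 0.73. It was the lowest array for 51 of the 172 member probe sets (29.7%), beside 20.8% of all probe sets with 1 symbol. With the single probe set used per gene it was the lowest for 12 of 71 members (16.9%, beside 18.1% of genes) and the highest for 24 (33.8%, beside 32.4%). In bulk tissue, fewer cells of a type and less RNA per cell cannot be told apart.

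The Hsp70 and Hsp110 proteins numbered 14, of which 8 were higher and 6 lower (median 0.018, range -0.36 to 0.12). The stress-inducible cytosolic pair gave the largest negative differences of all members. Hspa1a read 9.02, 9.67 and 9.56 in controls and 8.99, 9.16 and 9.11 in deficient arrays. Control 1 lay among the deficient arrays, whereas controls 2 and 3 lay above all of them. The difference was -0.33 ± 0.16 (SE) between means of 9.41 ± 0.35 and 9.09 ± 0.09 (1.26-fold lower, limma adjusted p 0.963).

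Its copy Hspa1b had the same order of groups, with 10.62, 11.29 and 11.38 in controls and 10.66, 10.82 and 10.74 in deficient arrays. Here control 1 was the lowest of all arrays. The means of 11.10 ± 0.42 and 10.74 ± 0.08 differed by -0.36 ± 0.18 (1.28-fold lower, limma adjusted p 0.963). The other probe sets of Hspa1b were lower as well, by 0.57 and 0.67, and in both of them control 1 was again well under controls 2 and 3. Deficient array 2, the one with the wide 3′ to 5′ gap, was the lowest of all arrays in both (9.13 and 8.65). The part of that gap in these values was not tested. Since each gene has a near-identical copy, these probe sets are not independent readings.

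Control 1 was also the control with the choroid plexus list at 7.90. With that list mean as an added term the differences changed sign, to 0.12 for Hspa1a and 0.17 for Hspa1b. The deficient arrays had the list at 7.76 to 8.73, and controls 2 and 3 had it at 5.75 and 5.68. Choroid plexus content and genotype thus cannot be told apart here, and the part of that content in the values was not tested. The same limit holds for that term in other genes. Without control 1 the differences of the pair were -0.52 and -0.60, with limma adjusted p of 0.391 and 0.255. Leaving out control 2 gave -0.20 and -0.26, and leaving out control 3 gave -0.26 and -0.21. The value of the pair in the 3 control animals thus spanned more than the distance between group means.

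**Figure D2:**
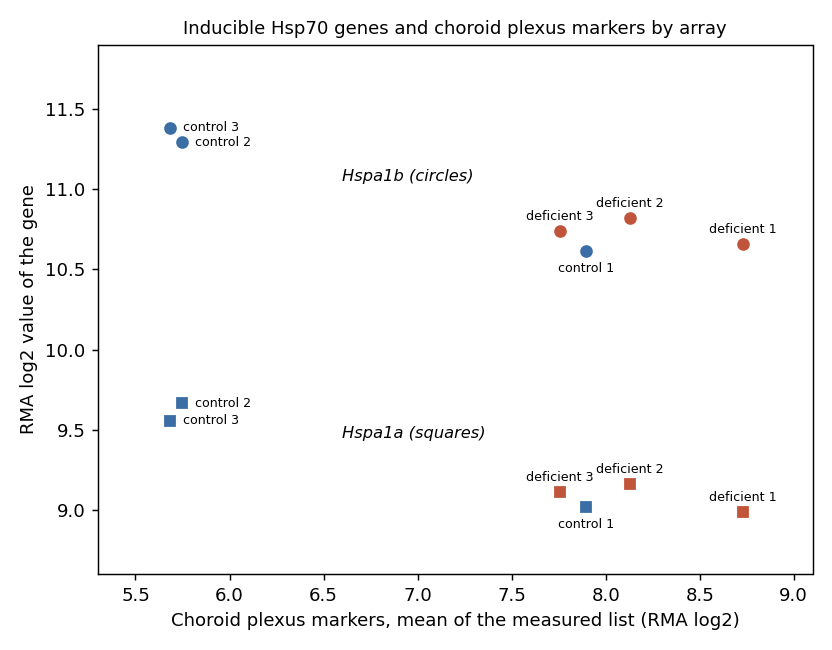
Level of Hspa1b (circles) and Hspa1a (squares) on each array (y axis, log2) against the mean of the choroid plexus markers on that array (x axis, log2), with controls in blue and IκBα-deficient arrays in red. The 2 controls with list means of 5.75 and 5.68 have the highest values of both genes, and the control at 7.90 sits with the deficient arrays.

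The other stress-inducible and constitutive Hsp70 members moved little. Hspa8, the constitutive cytosolic Hsc70, read 13.94, 14.02 and 13.98 in controls and 14.06, 14.10 and 13.95 in deficient arrays, and the groups overlapped. The difference was 0.06 ± 0.07 (SE), or 1.04-fold. Hspa9, the mitochondrial matrix Hsp70 (mortalin), read 10.69, 10.66 and 10.70 against 10.70, 10.72 and 10.82. Every deficient array was above the controls, yet the lowest of them by less than 0.01, and the difference was 0.06 ± 0.06. With the mean of its 5 probe sets in place of the brightest, it was -0.0059.

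The Hsp110 exchange factors Hspa4 and Hsph1 lay on opposite sides of 0, and the difference between them was not tested. Hspa4l, a further Hsp110, overlapped between the groups. For Hspa4, an Hsp110 of the cytosol, the values were 10.90, 10.91 and 10.84 in controls and 11.07, 10.97 and 10.97 in deficient arrays. All deficient arrays were above the controls, by 0.12 ± 0.06 in the mean (1.09-fold, limma adjusted p 0.963). Of the 4 probe sets of Hspa4, 1 had the other sign. Hsph1, the heat-inducible Hsp110 whose promoter is printed above, read 12.58, 12.60 and 12.58 in controls and 12.43, 12.46 and 12.51 in deficient arrays. All deficient arrays were below the controls, whose SD was 0.01, and the difference was -0.12 ± 0.06 (1.08-fold lower, limma adjusted p 0.963). A second probe set of Hsph1 differed by -0.35, with 11.04 to 11.19 on 5 arrays and 10.24 on deficient array 2, the one with the wide 3′ to 5′ gap, whose part in that value was not tested.

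Less well known members of the class overlapped between the groups. Hspa12a, an atypical Hsp70, had 10.48, 10.53 and 10.53 in controls and 10.36, 10.26 and 10.50 in deficient arrays, a difference of -0.14 ± 0.07 with overlapping groups. Hspa1l, known from the testis, read 3.87, 4.03 and 4.14 against 4.14, 4.18 and 4.04, a difference of 0.11 ± 0.09 at a level at the low end of the array. Hspa2, also known for its role in sperm development, read 10.05, 10.14 and 10.26 against 10.11, 9.95 and 10.21, and its difference of -0.06 ± 0.09 was smaller than the SD of either group. Hspa5 is described with the ER proteins, and the other 4 members of the class, Hspa4l among them, lay between 0.01 and 0.10.

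**Figure D3:**
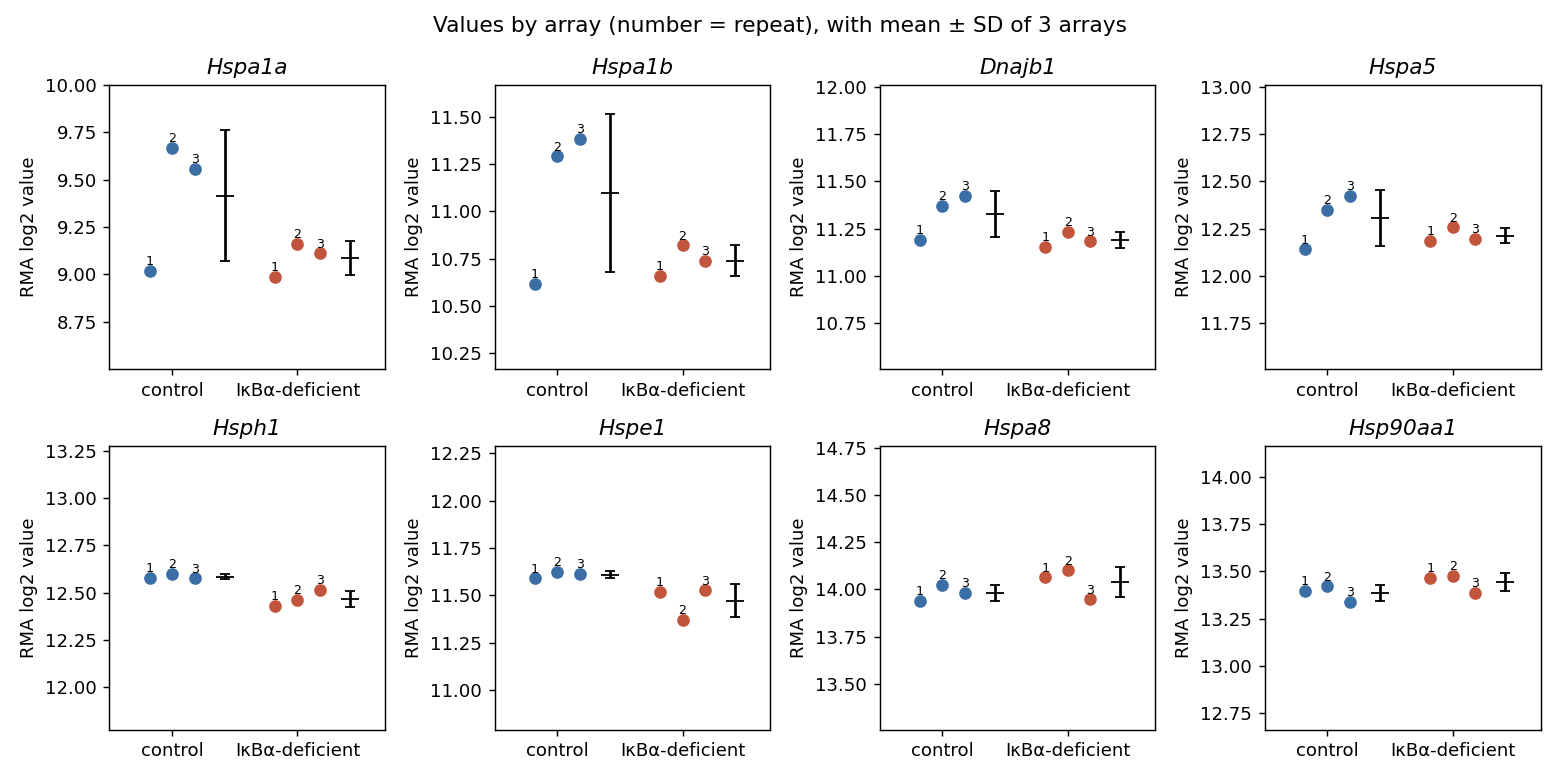
Values of 8 chaperone genes on each array (y axis, log2; every panel spans 1.5 log2 units) for 3 control and 3 IκBα-deficient arrays, with points labelled by repeat and the mean ± SD of each group. Control 1 of Hspa1a, Hspa1b, Dnajb1 and Hspa5 lies at or near the deficient arrays, Hsph1 and Hspe1 do not overlap between groups, and Hspa8 and Hsp90aa1 do.

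The Hsp90 class had 2 measured members, both higher by 0.06. Hsp90aa1, the inducible cytosolic Hsp90, read 13.40, 13.42 and 13.34 in controls and 13.46, 13.48 and 13.39 in deficient arrays, which overlapped (difference 0.06 ± 0.06, SE). Of its 5 probe sets 2 had the other sign, 1 of them by -0.18, where deficient array 2 read 11.73 and the other arrays 12.19 to 12.43. The direction for Hsp90aa1 thus depended on the probe set, and the mean of all of them gave -0.034.

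In the mitochondrial chaperonin the cage and the lid differed in sign. Hspd1, the cage (Hsp60), read 11.59, 11.61 and 11.64 in controls and 11.62, 11.67 and 11.63 in deficient arrays, a difference of 0.03 ± 0.06. Hspe1, the lid (Hsp10), read 11.59, 11.62 and 11.61 in controls and 11.52, 11.37 and 11.52 in deficient arrays, all below the controls. Its difference was -0.14 ± 0.07 between means of 11.61 ± 0.02 and 11.47 ± 0.09 (1.10-fold lower, limma adjusted p 0.963). The second probe set of Hspe1 was also below every control on every deficient array, by 0.22 in the mean. The genes share the promoter region printed for Hspe1, with its run of 4 heat shock units. The difference between Hspd1 and Hspe1 was not tested.

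Small heat shock proteins numbered 6, with 3 higher and 3 lower (median 0.0063, range -0.11 to 0.29). Hspb9, known from the testis, gave the largest positive difference of all members, with 4.12, 4.02 and 3.89 in controls and 4.54, 4.22 and 4.15 in deficient arrays. The groups did not overlap, and the difference was 0.29 ± 0.11 (1.23-fold, limma adjusted p 0.963). Deficient array 1 stood above the rest: without it the difference was 0.18. With the choroid plexus term it was 0.079. The level is at the low end of the array.

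Hspb6 (Hsp20), a small heat shock protein known from muscle, read 6.50, 6.31 and 6.50 in controls and 6.75, 6.53 and 6.52 in deficient arrays. All deficient arrays were above the controls, in 2 cases by less than 0.03, and the difference was 0.17 ± 0.09 (1.12-fold, limma adjusted p 0.963). The list of pericyte and smooth muscle markers was higher in 9 of 10 genes (median 0.16). Its means were 8.22, 8.35 and 8.05 in controls and 8.20, 8.65 and 8.24 in deficient arrays. The list was highest on deficient array 2 and Hspb6 on deficient array 1. The part of the list in the Hspb6 value was not tested. Hspb8, which works with Bag3 in the removal of misfolded proteins, read 8.38, 8.22 and 8.15 against 7.89, 8.26 and 8.27. Only deficient array 1 was below the controls, and the difference of -0.11 ± 0.12 became 0.019 without it. The other probe sets of Hspb8 were lower by 0.20 and 0.32. In the first of them all deficient arrays (7.57, 7.84 and 7.83) lay below all controls (8.01, 7.87 and 7.98), so the probe sets differ in how far the result depends on that array.

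Class A DnaJ proteins, which carry substrates to cytosolic and mitochondrial Hsp70, numbered 4. With 1 probe set per gene they had the narrowest range of the classes with over 2 members, -0.05 to 0.02. The other probe sets of the class ran wider, from -0.34 to 0.18. Dnaja1 read 12.79, 12.75 and 12.74 in controls and 12.69, 12.90 and 12.75 in deficient arrays, a difference of 0.02 ± 0.07. Its deficient arrays enclosed all controls. Dnaja2 differed by 0.0060 ± 0.057 and Dnaja4 by -0.05 ± 0.08, and the groups of both overlapped.

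Class B held 13 members, 5 higher and 8 lower (median -0.03, range -0.14 to 0.08). Dnajb1 (Hsp40), the heat-inducible partner of Hspa1a, read 11.19, 11.37 and 11.42 in controls and 11.15, 11.23 and 11.18 in deficient arrays. Control 1 lay within the deficient range, as for Hspa1a. The difference was -0.14 ± 0.08 (1.10-fold lower), -0.21 without control 1 and 0.016 with the choroid plexus term. Dnajb6, which suppresses the aggregation of polyglutamine proteins, read 12.66, 12.57 and 12.73 against 12.58, 12.54 and 12.59, a difference of -0.08 ± 0.07 with overlapping groups. Dnajb13, known from cilia and sperm tails, read 5.18, 5.23 and 5.33 against 5.50, 5.24 and 5.25, so that only deficient array 1 was above the controls (difference 0.08 ± 0.09). All 10 markers of ciliated ependyma were higher (median 0.20, means of 6.62 to 6.90 against 6.76 to 7.27), and their part in the Dnajb13 value was not tested.

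Class C, the largest and most varied, held 27 members, 17 higher and 10 lower (median 0.03, range -0.19 to 0.18). Dnajc17, linked to transcription and splicing, had the largest positive difference in it, with 8.14, 8.28 and 8.23 in controls and 8.46, 8.42 and 8.30 in deficient arrays. The groups did not overlap and the difference was 0.18 ± 0.07 (1.13-fold, limma adjusted p 0.963). Of its 3 probe sets 1 had the other sign, and the mean of all was 0.05. Dnajc7, which binds Hsp70 and Hsp90 through repeats of its own, was above the controls on every deficient array, with 10.94, 11.03 and 10.96 against 10.87, 10.92 and 10.92 (difference 0.08 ± 0.06). Dnajc30, a mitochondrial J protein, read 10.82, 10.71 and 10.80 in controls and 10.85, 10.81 and 10.93 in deficient arrays (difference 0.09 ± 0.07), with overlap of a single array.

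Members of class C on the lower side included both that did not overlap. Dnajc28 read 8.74, 8.72 and 8.73 in controls and 8.54, 8.71 and 8.50 in deficient arrays, where array 2 came within 0.02 of the lowest control. The difference was -0.15 ± 0.07 (1.11-fold lower, limma adjusted p 0.963), and the other of its 2 probe sets had the opposite sign. Dnajc5b, a relative of cysteine string protein known from the testis, read 4.80, 4.81 and 4.81 against 4.72, 4.68 and 4.62. Its controls had an SD of 0.01, and the difference was -0.13 ± 0.06 (1.10-fold lower, limma adjusted p 0.963) at a low level.

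Dnajc24, which takes part in the diphthamide modification of a translation factor, had the lowest difference of the class, -0.19 ± 0.21, and rests on 1 array. Its values were 7.32, 7.39 and 7.51 in controls and 7.52, 6.67 and 7.46 in deficient arrays, and without deficient array 2 the difference was 0.08. With 1 probe set per gene the synaptic J proteins stayed within 0.03, but their other probe sets ran wider. Dnajc5, cysteine string protein on synaptic vesicles, read 11.80, 11.79 and 11.71 against 11.81, 11.83 and 11.70 (difference 0.01 ± 0.07), although 4 of its 5 probe sets had the other sign. Dnajc6, the clathrin uncoating cofactor auxilin, read 12.63, 12.65 and 12.59 against 12.63, 12.71 and 12.62 (difference 0.03 ± 0.06). Of its 4 probe sets 2 had the other sign, 1 of them by -0.25.

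The name rule also took in 3 genes that are no small heat shock proteins, of which 1 was higher and 2 lower. Hspbp1, a nucleotide exchange factor of Hsp70, read 9.27, 9.21 and 9.26 in controls and 9.24, 8.71 and 9.30 in deficient arrays. Again array 2 was alone, and the difference of -0.16 ± 0.15 was 0.023 without it. Hspbap1, named for binding a small heat shock protein, read 6.82, 6.84 and 6.84 against 6.63, 6.88 and 6.69 (difference -0.10 ± 0.08), and 3 of its 4 probe sets had the other sign. Hspb11, a part of intraflagellar transport, differed by 0.02.

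The members most tied to the heat shock response, taken as a set with the constitutive Hspa8 included (Hspa1a, Hspa1b, Hspa8, Hsph1, Dnaja1, Dnajb1, Hsp90aa1, Hspb8, Hspd1 and Hspe1) had 4 higher and 6 lower genes and a median difference of -0.11. The mean of the set was 11.51, 11.66 and 11.64 in controls and 11.45, 11.55 and 11.51 in deficient arrays. Deficient array 2 was above control 1, so the groups overlapped, and control 1 was the lowest control, as in Hspa1a and Hspa1b.

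The chaperones of the ER did not move as one. Hspa5 (BiP), the Hsp70 of the ER, read 12.14, 12.35 and 12.42 in controls and 12.19, 12.26 and 12.19 in deficient arrays, with control 1 the lowest of all. Its difference was -0.09 ± 0.08, -0.17 without control 1 and 0.085 with the choroid plexus term. Hsp90b1 (Grp94), its Hsp90 counterpart, was higher by 0.06 ± 0.06, with 11.71, 11.72 and 11.64 against 11.82, 11.73 and 11.72, the lowest of which lay within the controls. Of the 5 ER members, 2 were higher and 3 lower, with a median of -0.04.

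The ER J proteins split in the same way. Dnajb9 (ERdj4), which helps to remove misfolded ER proteins, read 11.00, 11.01 and 10.96 in controls and 11.02, 11.21 and 10.99 in deficient arrays, a difference of 0.08 ± 0.08 that rests mostly on array 2. Dnajb11 (ERdj3), a cofactor of Hspa5, read 9.97, 10.04 and 10.07 against 9.94, 9.80 and 10.06, a difference of -0.09 ± 0.08. Dnajc3, an inhibitor of the stress kinase Eif2ak3 and a cofactor of Hspa5, read 10.33, 10.48 and 10.48 against 10.41, 10.49 and 10.26, a difference of -0.04 ± 0.08. The 3 members with the ER stress element, Hspa5, Hsp90b1 and Dnajc3, thus had 1 gene higher and 2 lower, and the groups of each overlapped.

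**Figure D4:**
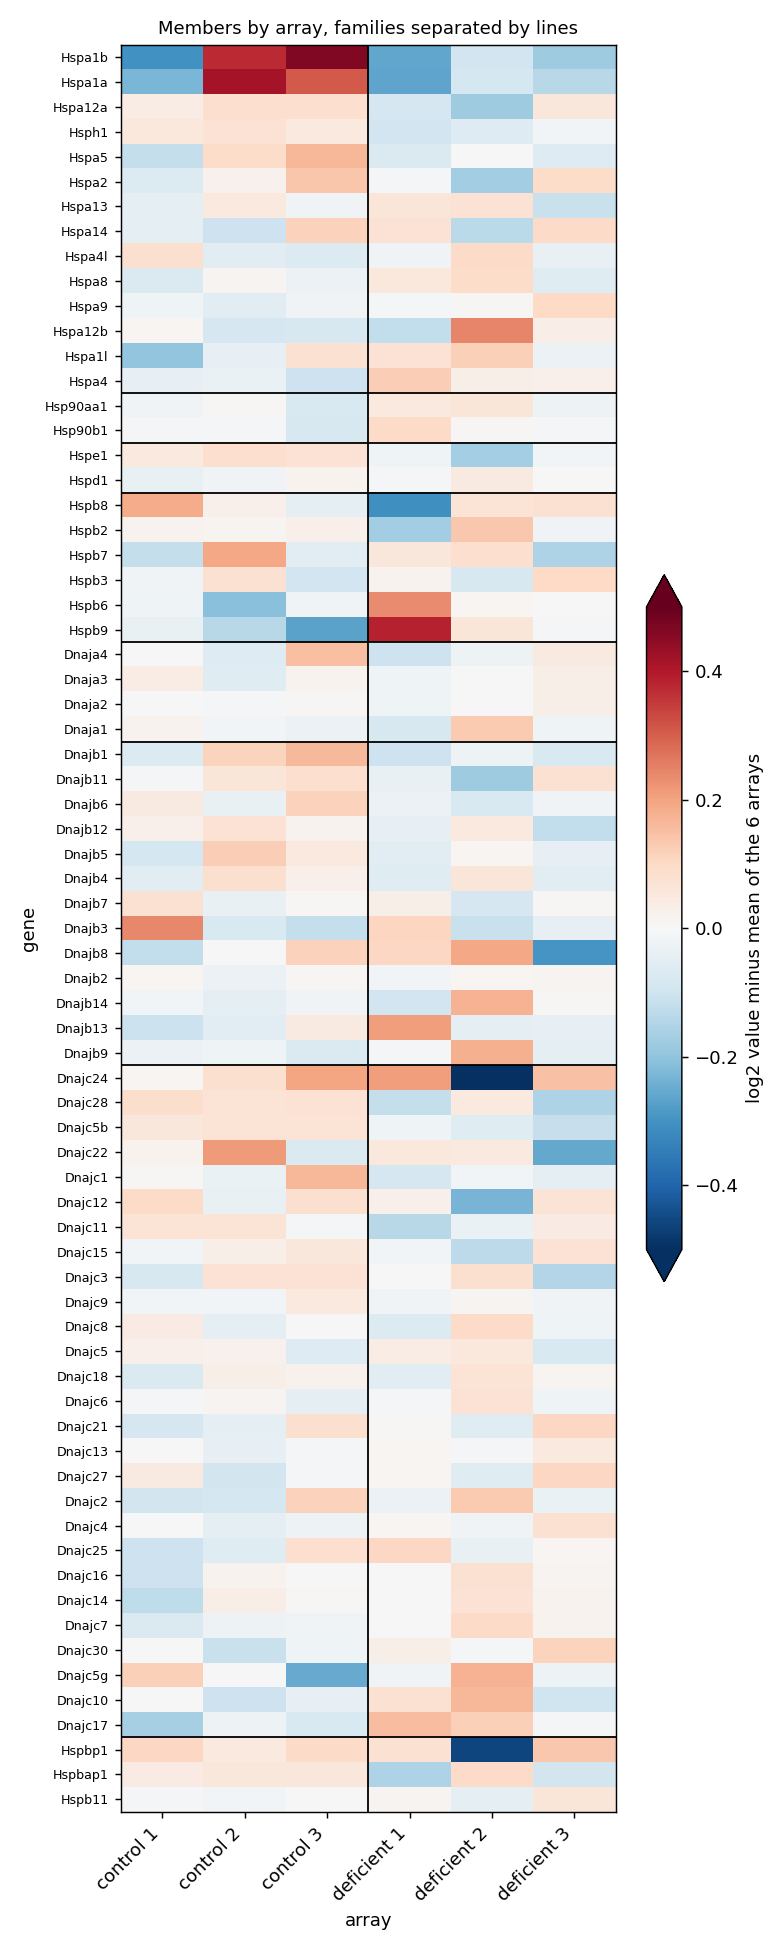
Heat map of the 71 members (rows, by family, with lines between families) on the 6 arrays (columns), coloured by the log2 value minus the mean of that gene over the 6 arrays, on a scale of ±0.5. Most rows are pale in every column; the deepest cells belong to Hspa1a and Hspa1b in controls and to Dnajc24 and Hspbp1 in deficient array 2.

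Genes of the same pathways outside the family were described from lists, which share some genes. In the 74 genes of all lists, 27 were higher and 47 lower (median -0.03). Of these, 0 were called and 1 had an unadjusted limma p under 0.05, beside 857 of all 18193 genes. Their mean was 10.10, 10.11 and 10.15 in controls and 10.10, 10.03 and 10.12 in deficient arrays. Only deficient array 2, with the wide 3′ to 5′ gap, was below all controls, and the part of that gap in the lower values was not tested. Among heat shock factors and their targets, 12 of 15 listed genes were measured, 2 higher and 10 lower, with a median of -0.10 beside 0.0058 for all genes. Ahsa1, which activates the ATPase of Hsp90, read 11.25, 11.28 and 11.28 in controls and 11.20, 11.06 and 11.13 in deficient arrays. It was below the controls on every deficient array (difference -0.14 ± 0.06), whereas Stip1 (Hop), which joins Hsp70 to Hsp90, overlapped with a difference of -0.16 ± 0.08. Hmox1, a stress-inducible enzyme of heme breakdown, had a difference of -0.23 ± 0.11, and Serpinh1, the collagen chaperone Hsp47, one of 0.28 ± 0.16, with overlap in both. Serpinh1 is made by collagen-producing cells, and with the meninges list, which was also higher, as an added term its difference was 0.065. Deficient array 2 was the highest array for both, at 8.61 for Serpinh1 and 8.82 for the list mean. The part of meningeal tissue in the Serpinh1 value was not tested.

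Among Hsp90 cochaperones, 14 of 17 were measured, 5 higher and 9 lower (median -0.06). Rpap3, a scaffold for the assembly of RNA polymerase with Hsp90, was above the controls on every deficient array, by 0.15 ± 0.07, and had the unadjusted p mentioned (limma adjusted p 0.963). The 12 exchange factors and partners of Hsp70 had 5 higher and 7 lower genes (median -0.02). Among 14 subunits of the cytosolic chaperonin TRiC and of prefoldin, 7 were higher and 7 lower (median 0.0035).

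For ER folding and the unfolded protein response, 6 of 20 genes were higher and 14 lower (median -0.05). Sdf2l1, an ER protein that works with Dnajb11, had 8.63, 8.85 and 8.98 in controls and 8.66, 8.39 and 8.70 in deficient arrays, a difference of -0.24 ± 0.11 with control 1 inside the deficient range. Pdia6, a disulfide isomerase, lay below the controls on every deficient array (difference -0.13 ± 0.08), though by less than 0.01 at the nearest. Mitochondrial folding factors and proteases had 4 of 10 higher and 6 lower (median -0.03). Of the cold-inducible RNA-binding proteins 1 of 2 was measured and was lower, with overlapping groups.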

How the data were processed

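Hippocampal RNA of 6 mice was measured on Affymetrix arrays. The deposited values are log2 expression values that the authors made with RMA (background correction, quantile normalization and probe summary), per the submitters' processing notes, with version and build not given in the sources used here. RMA compresses differences of dim genes and hides a shift shared by most genes. Of 45101 probe sets, 64 controls, 932 with several symbols and 9160 without one were left out, according to the platform annotation from GEO (symbols may be old); 34945 remained.

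Each gene had its probe set of highest mean, with no filter. Genotype was the only term of a two-sided limma fit (version 3.58.1, R 4.3.3, lmFit then eBayes), with Benjamini-Hochberg adjustment over 18193 genes and a threshold of 0.05. Errors of differences are standard errors of that fit. The script was tested on simulated data. Members and lists were chosen with earlier results of these data known. Values by array are given for the heat-inducible, ER and constitutive sets and the 6 members per direction with the smallest p. Other genes named with values were chosen after their values were seen. Gene symbols matched 58 members to RefSeq promoters (GRCm38.p6), read for 250 bases before the start. Figures used matplotlib 3.10.9.

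Alternatives were leaving out 1 array at a time, a block for the repeat number, quantile normalization again, median centring, the lowest 40% of genes left out, other choices of probe set, a trend with robust settings, array weights, no moderation, an exact permutation test, and the choroid plexus list, the meninges list or the 3′ to 5′ gap as a term.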

Additional observations from a re-analysis of the deposited data

How the results depend on the processing

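No member was called by limma in any alternative. Over all genes, 5 were called without control 1 and 0 or 1 in each other setting, so calls were rare for any gene. The lowest limma adjusted p of a member was 0.255. In every setting that could be fitted for them (17, or 16 for the dim ones), 25 members kept their direction, and 46 changed it in 1 or more. The genes listed here are those described with values above; the totals cover all members. The design text speaks of 3 pairs of deficient mice and littermates, but no label ties a repeat number to a litter. Deviations from group means of same-numbered arrays correlated at 0.061, 0.238 and 0.195, and those of differently numbered arrays at -0.267 to 0.143. Deficient array 1 correlated best with control 3 (0.143). Whether the repeat numbers mark litters cannot be settled from these values. With the repeat number as a block, 0 members and 0 genes over all were called, and no member changed sign. Unadjusted limma p under 0.05 went to 1 member on the higher side and 2 on the lower. The shares over all genes were not counted for the block. With the choroid plexus term 20 members changed sign, among them Hspa1a 0.12, Hspa1b 0.17, Hspa5 0.085, Hspa2 0.063, Dnajb1 0.016, Dnaja4 0.016, Dnajc3 0.034 and Dnajc5 -0.049. The meninges term turned 19, among them Dnaja1 (-0.064), Dnajb9 (-0.018), Dnajb11 (0.0031), Dnajc24 (0.19), Dnajc5 (-0.042), Dnajc6 (-0.022), Hspa2 (0.069) and Hspbp1 (0.087), and the 3′ to 5′ gap turned 17, among them Dnaja1 (-0.039), Dnajc24 (0.075), Dnajc5 (-0.016), Dnajc6 (-0.001), Hspa2 (0.015) and Hspbp1 (0.018). Array weights turned 7, among them Dnaja1 (-0.030) and Dnajc24 (0.0018). The mean of all probe sets turned 16, among them Dnaja2 (-0.0047), Dnajc5 (-0.12), Dnajc6 (-0.058), Hsp90aa1 (-0.034), Hspa9 (-0.0059) and Hspbap1 (0.0046), with a median over members of -0.029; leaving out shared probe sets turned 5, among them Dnaja2 (-0.083), Hsp90aa1 (-0.18) and Hspbap1 (0.018). Leaving out 1 array turned 5 to 17 members, most without deficient array 2; those described above had these ranges: Dnaja1 -0.042 to 0.063, Dnaja2 -0.0081 to 0.018, Dnaja4 -0.10 to 0.0067, Dnajb13 -0.0053 to 0.12, Dnajc24 -0.34 to 0.082, Dnajc3 -0.094 to 0.020, Dnajc5 -0.019 to 0.051, Dnajc6 -0.0003 to 0.047, Hspa2 -0.12 to 0.013, Hspb8 -0.17 to 0.019 and Hspbp1 -0.27 to 0.023. Family medians moved for Hsp70 and Hsp110 (0.076 with the choroid plexus term, -0.032 with the meninges term), Hsp90 (-0.014 with all probe sets, -0.058 without shared ones), the mitochondrial chaperonin (-0.095 without shared probe sets, -0.030 with the meninges term), small heat shock proteins (-0.11 without dim genes, -0.026 to 0.076 with 1 array left out), class A (-0.054 with all probe sets, -0.069 without shared ones) and class B (0.016 with the choroid plexus term). The causes of these changes were not tested. Leaving out dim genes kept 57 members. With 3 arrays a group, differences of the size seen here could not be told from the spread between arrays.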
